A study of Caenorhabditis elegans with 60 samples.

Results

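The HRDE-1-bound WAGO loci of *Caenorhabditis elegans* described here are 157 of the 2434 loci that the submitters classed as WAGO targets, out of 6074 WAGO and CSR-1 loci in the table of immunoprecipitated small RNAs. They were chosen by the measured IP and input values. With every library scaled to parts per 1000000 of its own total (ppm), a member had at least 10 ppm in the HRDE-1 immunoprecipitate (IP) and an HRDE-1 IP to input ratio of at least 2 after adding 1 ppm to both, while its WAGO-1 IP to input ratio stayed below 2. Another 214 WAGO loci met the WAGO-1 ratio alone, 9 met both, and 2054 met neither in full (ratio and at least 10 ppm in the IP). The membership rests on 1 library per IP or input, so the IP values are a description and carry no test.

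The series measured small RNAs and mRNA in worms lacking the small RNA methyltransferase HENN-1 and in worms lacking the Argonaute RDE-1. Mutants carried henn-1(pk2295) III or rde-1(ne219) V, each a single allele, and wild type was N2, all grown at 20 °C. The HRDE-1 libraries came from gravid adults (68 h) of a FLAG::hrde-1 II strain. The WAGO-1 libraries came from a strain with GFP and 3xFLAG on wago-1 and mCherry on mut-16, precipitated through GFP. Gonads were dissected from gravid adults at 68 to 70 h, with 3 henn-1 and 3 wild type samples each for small RNA and mRNA. A stage set had 1 henn-1 and 1 wild type library from embryos, 52 h larvae and 68 h gravid adults. A further embryo set had 3 henn-1 and 3 wild type libraries counted by read length. The oxidation set had 3 oxidized and 3 untreated libraries each of rde-1 and wild type. All small RNA was polyphosphatase treated, and the oxidized samples were also treated with sodium periodate. The labels do not tell whether replicates were grown apart, so the spread behind each p-value may be technical.

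22G-RNAs are short antisense RNAs that RNA-dependent RNA polymerases copy from a target transcript after a primary small RNA, such as a piRNA, has marked it. Worm-specific Argonautes (WAGOs) carry them: WAGO-1 in germ granules, and HRDE-1 into germ cell nuclei, where it directs heritable transcriptional silencing and is needed for germline immortality. HENN-1 methylates the 3′ ends of piRNAs and of the 26G-RNAs bound by ERGO-1, and 22G-RNAs are generally not methylated. Periodate attacks an unmethylated 3′ end, so it depletes unmethylated RNAs from a library. RDE-1 is the Argonaute that binds primary small RNAs in the RNA interference pathway.

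Some features of the libraries bear on every result. The HRDE-1 IP was more like the WAGO-1 input (Pearson r of 0.996 on log2 values over the 2434 WAGO loci) than like its own input (0.948). The remaining pairs of these libraries ran from 0.82 (HRDE-1 input with WAGO-1 IP) to 0.96 (HRDE-1 input with WAGO-1 input). The WAGO-1 IP correlated with its own input at 0.89. Whether the IP and input labels of these libraries hold was not tested. Against the WAGO-1 input, the members' HRDE-1 IP was 0.785 to 1.36 times as high, with a median of 1.09. Against that same input, their HRDE-1 input was 0.327 to 0.620 times as high, with a median of 0.482. With the WAGO-1 input as denominator, or with the mean of both inputs, no locus met the rule. Binding by HRDE-1 and a low HRDE-1 input cannot be told apart with 1 library each, and "HRDE-1-bound" is used below only as the name of the rule. In the oxidation set, the source names of the oxidized samples give gravid adults of 68 h and their descriptions give L4 larvae, the stage of the untreated samples (52 h). Where the source name holds, oxidation and age cannot be told apart. The henn-1 mRNA in henn-1 gonads was 234, 249 and 229, against 2192, 2240 and 2298 in wild type gonads, on the deposited normalised scale (log2 difference -3.24, limma adjusted p = 2.38e-10).

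The member of highest HRDE-1 IP was T02G5.4, a pseudogene in RefSeq, with 1880 ppm in the IP and 895 ppm in the HRDE-1 input. C24H12.2 had 1791 ppm in the IP and 873 ppm in the input. rde-11, whose product forms the RDE-10/RDE-11 complex needed to amplify secondary small RNAs in RNA interference, had 1120 ppm in the IP and 449 ppm in the input. The remaining members among the 8 highest were K06B9.2, R11A8.1, T27E7.10, K09E9.3 and C18H2.2, at 842 to 1364 ppm in the IP. These values are per locus and not per length. Over all members the IP ran from 10.3 to 1880 ppm, with a median of 149.1 ppm.

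The IP to input ratios were narrow, from 2.00 to 3.46 with a median of 2.24. Only 31 members reached 2.5 and 6 reached 3, and 169 of all 6074 loci (2.78%) met the ratio. The WAGO-1 ratio was met by 287 loci (4.73%). The 8 highest ratios belonged to rgs-9 (3.46), a regulator of G protein signalling, the BTB domain gene btb-4 (3.33), C50E3.12 (3.32), C29G2.1 (3.16), the zinc transporter gene cdf-1 (3.05), H39E20.1 (3.00), Y73B6BL.288 (2.94) and ZK930.6 (2.87). Just inside the ratio threshold were nhr-228 at 2.002 and dnj-7 at 2.004, and C26B9.1 at 1.999 and gfrp-1, nearer still, were just outside. The members of lowest IP were fbxb-86 at 10.3 ppm and btb-10 at 17.8 ppm. Nearest the WAGO-1 threshold were the members fbxa-207 at 1.996 and Y71A12B.7 at 1.989, and Y54G2A.51 at 2.03 and W04A8.2 at 2.09 fell outside. In the WAGO-1 IP, 113 members had a ratio below 1, and the median was 0.775.

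**Figure D1:**
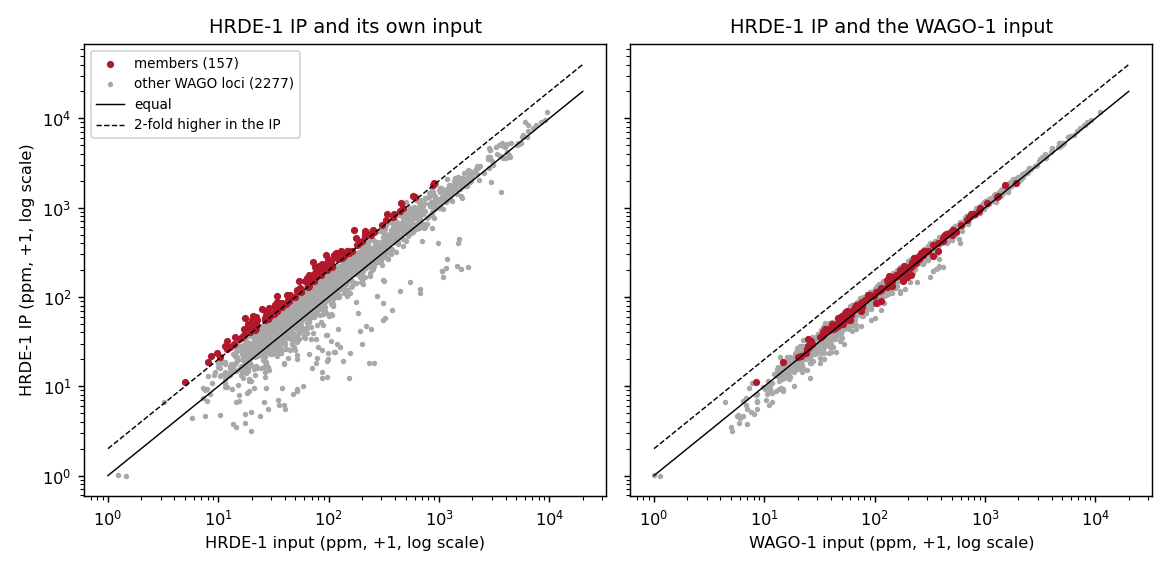
HRDE-1 IP (y axis, ppm, log scale) of each WAGO locus against the HRDE-1 input and against the WAGO-1 input (x axes, ppm, log scale), with the 157 members and the other WAGO loci in separate colours and 1 ppm added to every value. The members lie above the HRDE-1 input line at ratios of 2.00 to 3.46, and around the WAGO-1 input line at 0.785 to 1.36.

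Of the members, 139 were deposited as genes, 14 as pseudogenes and 4 as coding sequences. RefSeq, which gives the class used for single loci here, lists 23 members (14.6%) as pseudogenes, among them T02G5.4, against 226 other WAGO loci (9.93%). None was a transposon, against 191 transposons (8.39%) among the 2277 other WAGO loci. F-box family loci, whose gene products include substrate adaptors of ubiquitin ligases, made up 10 members (6.37%) and 86 other WAGO loci (3.78%). BATH and BTB domain family loci made up 4 members (2.55%) and 33 other WAGO loci (1.45%). The members also held a core histone gene (his-31), 2 nuclear hormone receptor loci, a UDP-glycosyltransferase locus (ugt-45) and a chemoreceptor pseudogene (srz-33). In the order of RefSeq gene models, 11 members lay directly beside another member, in 6 pairs such as pcm-1 with mcp-1 and ZC53.1 with rgs-9. No test of these shares was made. The small RNA machinery itself was represented by rde-11 and the Argonaute gene wago-2.

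In henn-1 gonads, small RNAs of most members were lower than in wild type gonads. Of 157 members, 155 passed the minimum mean of 10, and 98 of these fell (63.2%) while 12 rose (7.74%), by limma at an adjusted p of 0.05. Over all 9456 features of the table, which include piRNAs and CSR-1 targets, 15.9% fell and 42% rose. Among the 2232 other WAGO loci tested, 1221 fell (54.7%) and 270 rose (12.1%). The median log2 difference was -0.62 over members, -0.35 over the other WAGO loci and 0.14 over all features. Called decreases of at least 2-fold were found for 54 of the 155 members, 471 of the 2232 other WAGO loci and 529 of the 9456 features. With TMM scaling the median over all features was -0.12 and the median over members was -0.875, with 116 members lower and 8 higher. Over all features, that scaling gave 3491 lower and 3374 higher, in place of 1501 lower and 3976 higher. As a share of all WAGO signal, the members took 2.41 ± 0.021% in henn-1 gonads and 2.65 ± 0.045% in wild type gonads (SD, n = 3 each), and the groups did not overlap.

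Among members of the small RNA machinery, rde-11 had normalised small RNA values of 3424, 3843 and 3761 in henn-1 gonads, against 1650, 1882 and 1665 in wild type gonads. Every henn-1 value lay above every wild type value, and the log2 difference was 1.09 (SE 0.072, adjusted p = 7.09e-07). Small RNAs of wago-2, a WAGO Argonaute gene that RefSeq lists as a pseudogene, were 1630, 1518 and 1671 in henn-1 gonads, against 2163, 2204 and 2302 in wild type gonads. The groups did not overlap, and the log2 difference was -0.47 (adjusted p = 6.71e-05).

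Small RNAs of set-23, which encodes a SET domain protein, were 2069, 1596 and 1851 in henn-1 gonads, against 934, 960.3 and 1191 in wild type gonads, a log2 difference of 0.84 (adjusted p = 9.82e-05). Those of athp-3, which encodes a PHD finger protein, were 84.0, 85.0 and 123 in henn-1 gonads, against 568, 602 and 665 in wild type gonads. The athp-3 groups lay far apart, with a log2 difference of -2.66 (adjusted p = 2.00e-07).

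The largest increase was at ZC204.14, with 686, 803 and 909 in henn-1 gonads, against 343, 365 and 266 in wild type gonads (log2 difference 1.301, adjusted p = 1.31e-05). The other large increases were at trpp-12, which encodes a subunit of the TRAPP trafficking complex (0.93), and sur-5 (0.79). The call at trpp-12 was lost without henn-1 replicate 2 or 3. The largest decrease was at M162.13, a pseudogene in RefSeq, with 21.9, 29.5 and 41.3 in henn-1 gonads, against 194, 265 and 204 in wild type gonads (log2 difference -2.83). H39E20.1 (-2.77), athp-3 (-2.66), M04D5.1 (-2.62) and the F-box gene fbxa-13 (-2.53) followed. The 12 members that rose were rde-11, set-23, C15F1.8, fbxa-207, cdk-5, sur-5, ZK177.2, C46C2.2, ZC204.14, btb-4, hpo-42 and trpp-12. Of the 9 F-box members tested, 7 fell and fbxa-207 rose, and the call at fbxa-207 was lost with library totals, TMM scaling or edgeR on recovered reads. The members btb-10 and fbxb-86 had means under 10 and were not tested.

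**Figure D2:**
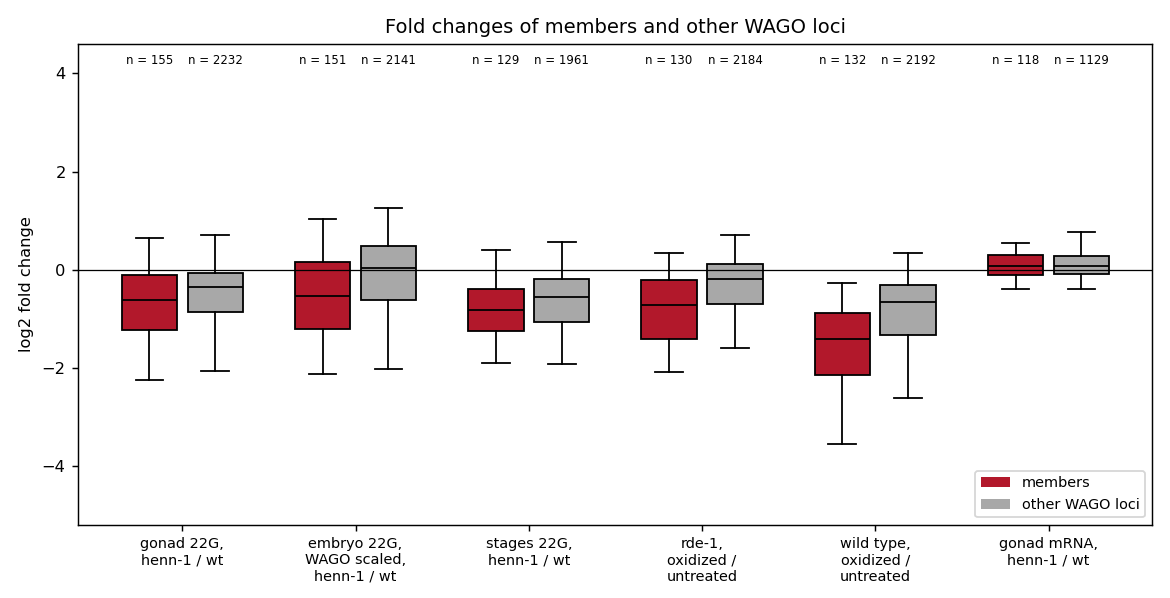
Log2 differences of members and of the other WAGO loci in each comparison (y axis), as boxes from the lower to the upper quartile with the median as a line and whiskers from the 5th to the 95th percentile. Members and other WAGO loci have medians of -0.62 and -0.35 for henn-1 against wild type in gonads, and of -1.41 and -0.65 for oxidized against untreated in wild type.

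Gonad mRNA of the same loci was measured for 139 members, and 118 passed the minimum mean of 10. Of these, 15 rose (12.7%) and 6 fell (5.08%) in henn-1 gonads, against 7.44% higher and 12.4% lower over the 8750 genes tested. Among the 1129 other WAGO loci tested, 94 rose (8.33%) and 57 fell (5.05%). No member changed 2-fold, and the median log2 difference was 0.08 over members, 0.07 over the other WAGO loci and 0.02 over all genes. The count of higher members depended on single libraries: it was 7 without wild type replicate 2, 8 without wild type replicate 3 and 6 without henn-1 replicate 2. The count of lower members ran from 3, without wild type replicate 3, to 7 as each library was left out. With library totals 675 genes were lower and 946 higher over the whole table, in place of 1082 lower and 651 higher, and 5 members were lower and 16 higher.

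Markers of some cell types moved with genotype in these mRNA libraries, and others did not. None of the 3 intestine, 2 epidermis, 3 neuron and 6 sperm markers tested was called. Of 8 muscle marker genes tested, 7 rose, and the sum over the 10 listed was 1545, 1534 and 2165 in henn-1 gonads, against 1069, 919.8 and 1092 in wild type gonads. Of 10 germ cell and oocyte markers, 4 fell and none rose, with sums of 74114 to 75854 in henn-1 gonads and 83799 to 87181 in wild type gonads. Of 5 somatic gonad markers tested, inx-8 (0.26) and inx-9 (0.40) rose and fln-1 (-0.20) fell. Sperm marker sums ran from 133 to 555 in henn-1 gonads and from 108 to 257 in wild type gonads, with the highest in henn-1 replicate 3 and wild type replicate 2. Without those sperm-rich libraries 7 members were higher, and 4 of the 8 muscle markers. The part of these cells in the members' mRNA was not tested, and fewer cells of a type and less RNA per cell cannot be told apart in such bulk samples.

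The mRNA of rde-11 was 412, 409 and 403 in henn-1 gonads, against 639.7, 645.8 and 645.9 in wild type gonads. The replicates were nearly identical within each genotype, and the log2 difference was -0.66 (SE 0.051, adjusted p = 0.000104). Next to its higher small RNA, this was the largest fall in mRNA among the members. The remaining decreases were E02H9.3 (-0.58), F54D11.3 (-0.41), ZK177.2 (-0.32), wago-2 (-0.22) and set-23 (-0.21). The calls at set-23, ZK177.2 and F54D11.3 were lost when certain single libraries were left out.

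The largest called rise in mRNA was that of the F-box gene fbxb-7, with 313, 302 and 299 in henn-1 gonads, against 189, 203 and 204 in wild type gonads (log2 difference 0.62, adjusted p = 0.00140). Its small RNAs were 73.8, 79.3 and 77.1 in henn-1 gonads, against 302, 338 and 256 in wild type gonads (log2 difference -1.94). For rsu-1, the homologue of a Ras suppressor, mRNA was 275, 311 and 278 in henn-1 gonads, against 196, 209.6 and 184 in wild type gonads (0.55). Its small RNAs differed by -0.75. The other large called increases were K09H9.7 (0.55), C07D10.5 (0.52) and T22B7.4 (0.50). his-31 rose by 0.45, although reads of histone genes may be split among near-identical copies. The mRNA calls at C07D10.5, T22B7.4 and his-31 were lost when certain single libraries were left out, and those at fbxb-7, rsu-1 and K09H9.7 held in every alternative run.

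Set side by side, 18 members were called in both readouts. Among the 118 members tested in both, 75 had lower and 10 had higher small RNA in henn-1 gonads. Of the 15 members with higher mRNA, 13 had lower small RNA (86.7%), C46C2.2 had higher small RNA and C09E7.4 was not called. Of the 6 with lower mRNA, rde-11, set-23 and ZK177.2 had higher small RNA, wago-2 had lower small RNA, and E02H9.3 and F54D11.3 were not called. Most members with lower small RNA had no called mRNA change. The same crossing is not given here for the other WAGO loci, so these counts are not set against a background. The count of 15 with higher mRNA depended on single libraries, as given above.

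**Figure D3:**
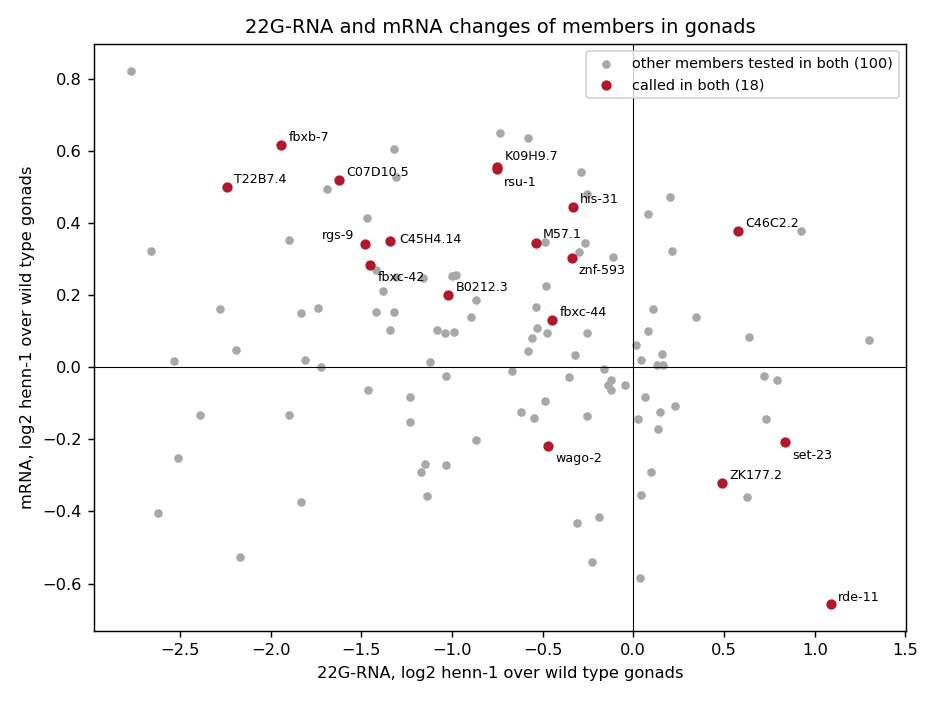
Log2 difference in mRNA (y axis) against log2 difference in small RNA (x axis) of the 118 members tested in both, henn-1 gonads against wild type gonads, with the 18 members called in both marked and named. The 13 members with higher mRNA and lower small RNA lie at the upper left, and rde-11, set-23 and ZK177.2 at the lower right.

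Across embryos, 52 h larvae and 68 h adults, the members' small RNAs were again mostly lower in henn-1. The genotype effect was tested over the 3 stages, with 1 library per genotype and stage. Of 129 members tested, 62 fell (48.1%) and 3 rose (2.33%), against 43.8% lower and 3.68% higher over the 2090 features tested. The members' median log2 difference was -0.82 and that over all features was -0.58. With library totals these medians were -0.31 and -0.05, and 17 members were lower and 8 higher, with 291 lower and 171 higher over all features. The share of members that fell was near the background. On the deposited values, 111 of all 157 members (70.7%) and 1478 of the 2277 other WAGO loci (64.9%) were lower in henn-1 at all 3 stages.

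The 3 members that rose were rde-11, ZC204.14 and the pseudogene hpo-42. For rde-11 the deposited values in henn-1 were 1475 in embryos, 254 at 52 h and 504 at 68 h, against 217, 150 and 268 in wild type (log2 difference 1.47, adjusted p = 0.0311). The gap was widest in embryos and present at every stage. For ZC204.14 the henn-1 values were 43.4, 65.8 and 74.9, against 28.8, 21.5 and 21.8 in wild type (1.29). The largest called decreases were at M162.13 (-2.61), F33E2.5 (-2.54), M04D5.1 (-2.35), athp-3 (-2.22), C50E3.12 (-2.02), T22B7.4 (-1.96) and fbxa-13 (-1.93).

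The members also differed in their course over development. With 1 library per genotype and stage, the henn-1 and wild type libraries served as replicates of each stage in these tests. In 52 h larvae, 72 of 129 members were lower than in embryos (55.8%) and 20 were higher (15.5%), against 33.6% lower and 21.6% higher over all features. Of 162 loci tested that met the WAGO-1 ratio alone, 46.9% were lower and 14.8% higher. The median log2 difference was -1.46 over members, -0.88 over those loci and -0.11 over all features. With library totals 60 members were lower and 29 higher, and over all features 519 were lower and 895 higher, in place of 703 lower and 451 higher. In 68 h adults, 21 members were higher than in embryos (16.3%) and 4 lower (3.10%), near the 18.9% and 7.37% over all features. In wild type, the highest of the 3 stages was the embryo for 80 members (50.96%), 52 h for 26 (16.6%) and 68 h for 51 (32.5%). Among the other WAGO loci the shares were 36.2% in embryos, 30.6% at 52 h and 33.2% at 68 h.

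For K03H9.3, values in embryos, at 52 h and at 68 h were 0.366, 50.7 and 26.8 in henn-1, against 1.3, 151 and 41.3 in wild type (52 h minus embryos 5.64 on the log2 scale, adjusted p = 0.000117). ZK930.6 (5.2), T11G6.7 (5.02), F41H10.12 (4.88) and F12A10.2 (3.97) followed, and these were also the 5 largest increases at 68 h. The largest decreases at 52 h were at F48G7.4 (-5.73), K07E3.2 (-5.51), F13C5.1 (-5.27), T24E12.11 (-5.15) and the BTB domain gene btb-11 (-4.77). For F48G7.4, values in embryos, at 52 h and at 68 h were 61.3, 0.567 and 36.3 in henn-1, against 248, 2.52 and 75.7 in wild type. The signal was thus low in larvae and present in embryos and adults of both genotypes.

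**Figure D4:**
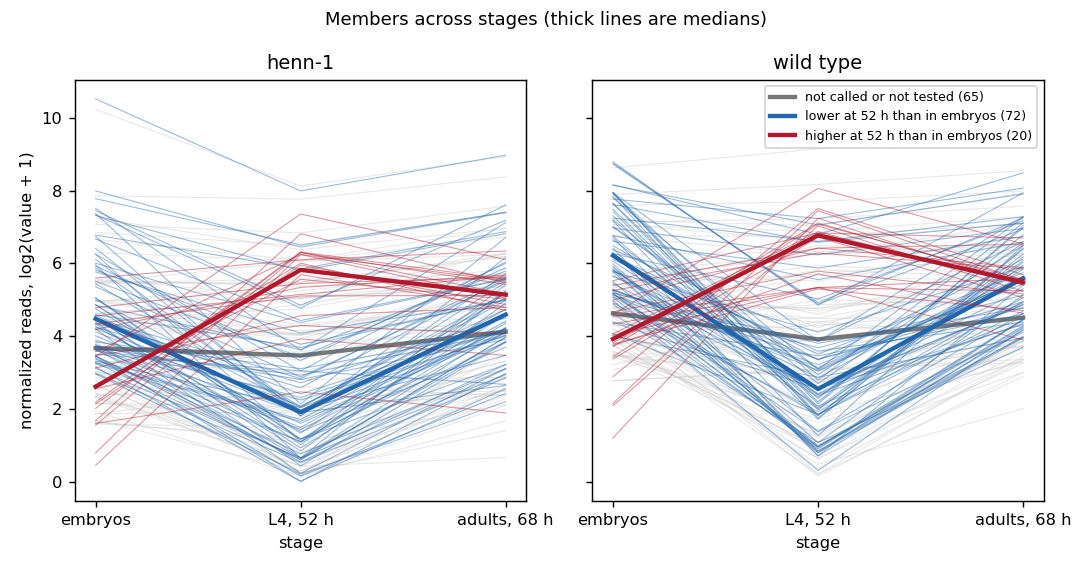
Deposited small RNA values of the members (y axis, log2(value + 1)) in embryos, 52 h larvae and 68 h gravid adults (x axis), 1 thin line per member, with henn-1 in the left panel and wild type in the right. Thick lines are the medians of the 20 members called higher at 52 h than in embryos, of the 72 called lower and of the rest. In wild type the 72 have medians of 73.6 in embryos, 4.84 at 52 h and 47.3 at 68 h, and the 20 have medians of 14.2, 109 and 43.7.

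In the embryo libraries counted by read length, 153 of 155 members tested were lower in henn-1 (98.7%) and none was higher, by edgeR's quasi-likelihood test. The background was 32.1% lower and 53.4% higher over the 7739 WAGO loci and piRNAs tested, and 2159 of 2172 other WAGO loci were lower (99.4%). At an unadjusted p under 0.05 the count was also 153 members. The makeup of the libraries differed: WAGO loci held 9.47 to 15.7% of the listed reads in henn-1 embryos and 62.6 to 90.0% in wild type embryos, the remainder being piRNAs. The part of this makeup in the members' decrease was not tested.

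Within WAGO reads alone, members still fell more often than they rose. Fitted on WAGO loci alone, 72 of 151 members were lower (47.7%) and 25 higher (16.6%), against 29.7% lower and 26.5% higher over the 2292 loci tested. The median log2 difference was -0.54 over members, 0.04 over the other WAGO loci and 0.02 over all loci. Members took 3.88 ± 0.175% of WAGO reads in henn-1 embryos and 4.19 ± 0.088% in wild type embryos (SD, n = 3 each), and the groups did not overlap. rde-11 had 4025, 3253 and 3211 ppm of WAGO reads in henn-1 embryos, against 1200, 978 and 987 in wild type embryos (log2 difference 1.74, adjusted p = 1.07e-05). Taken over all listed reads, rde-11 was lower in henn-1 embryos (-1.64), so its direction there depends on the denominator.

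At athp-3, henn-1 embryos had 130.2, 146 and 109 ppm of WAGO reads, against 911, 914 and 754 in wild type embryos (log2 difference -2.75). This was close to the size seen in gonads. M162.13 rested on 1.5 to 2 reads per henn-1 library, against 26 to 118.5 reads per wild type library, and its log2 difference was -2.13 (adjusted p = 0.000532). The 22-nt class held 45.9 ± 2.33% of the members' reads in henn-1 embryos and 53.4 ± 0.29% in wild type embryos. For the other WAGO loci it held 50.1 ± 2.20% in henn-1 embryos and 53.6 ± 0.63% in wild type embryos. The 20-nt class of the members was 10.2 ± 1.60% in henn-1 embryos and 6.40 ± 0.267% in wild type embryos. For the other WAGO loci it was also higher in henn-1 embryos, at 8.79 ± 1.1%, than in wild type embryos, at 7.03 ± 0.363%.

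The gonad, stage and embryo libraries share no samples, and many of the same members fell in each. Of 72 members lower within embryo WAGO reads, 65 were also lower in gonads (90.3% of the embryo list and 67.7% of the 96 gonad members tested in both). Of 62 members lower over stages, 52 were lower in gonads (83.9% of the stage list and 65.8% of the 79 gonad members tested in both). Among the other WAGO loci, 87.9% of the embryo list (46% of the gonad list) and 84.5% of the stage list (69.4% of the gonad list) were shared in this way. In all, 40 of 125 members tested in the 3 sets were lower in each (32%), against 367 of 1847 other WAGO loci (19.9%). rde-11, ZC204.14 and hpo-42 were higher in each (2.4%), against 35 of the other WAGO loci (1.89%), and none of these differences in share was tested. The overlaps use the stage calls on the deposited scale. With library totals 17 members were lower over stages in place of 62, so the overlaps with the stage set depend on the scaling.

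**Figure D5:**
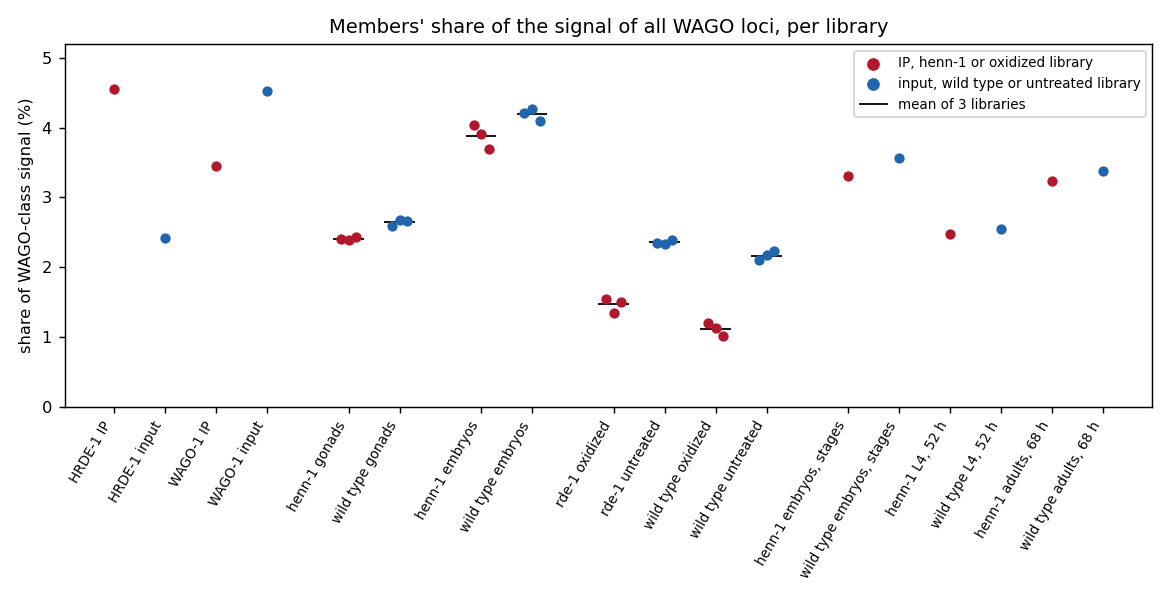
Members' share of WAGO small RNA signal (y axis, percent, from 0) in every library, with groups along the x axis and a point per library. henn-1 lies below wild type in gonads (2.41 and 2.65%) and embryos (3.88 and 4.19%), and oxidized lies below untreated in rde-1 (1.46 and 2.36%) and in wild type (1.11 and 2.17%); bars are means of 3 libraries.

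After periodate treatment, small RNAs of most members were lower relative to the rest of the library. In wild type, 93 of 132 members tested were lower after oxidation (70.5%) and 1 was higher, against 42.9% lower and 34.9% higher over 12383 features. Among the other WAGO loci 1434 of 2192 were lower (65.4%). The median log2 difference was -1.41 over members, -0.65 over the other WAGO loci and -0.33 over all features. Of 205 loci tested that met the WAGO-1 ratio alone, 130 were lower (63.4%), with a median of -1.26, near that of the members. The members took 1.11 ± 0.096% of WAGO signal in oxidized libraries and 2.17 ± 0.065% in untreated ones (SD, n = 3 each). For rde-11 the oxidized values were 619, 494 and 333, against 2013, 2105 and 2336 untreated (log2 difference -2.20, adjusted p = 4.31e-05). wago-2 showed a like difference, with 328, 299 and 204 in oxidized libraries, against 925, 1026 and 1178 in untreated ones (-1.93).

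Several members were at or near 0 after oxidation. H39E20.1 was at 0 in all 3 oxidized wild type libraries, against 27.03, 32.3 and 27.2 in untreated ones. The neighbours mcp-1 and pcm-1 were each at 0 in 2 oxidized libraries, with 2.34 and 0.779 in the remaining one, against 30.1 to 48.6 for mcp-1 and 26.4 to 36.9 for pcm-1 in untreated libraries. Over all members, 19 to 25 were at 0 in an oxidized wild type library and 1 to 3 in an untreated one. The share of other loci at 0 is not given here, so these counts are not set against a background. The oxidized wild type libraries held 6470120 to 13072657 reads and the untreated ones 10905719 to 13206975. The part of depth in the zeros was not tested.

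M162.13 was the exception. Its values were 1392, 1554 and 1176 in oxidized wild type libraries, against 544, 546 and 500.4 in untreated ones, a log2 difference of 1.36 (adjusted p = 4.94e-05). In rde-1 it had 1398, 2088 and 1346 oxidized, against 408, 414 and 506 untreated (1.84, adjusted p = 0.000135). It was thus the member with the largest decrease in henn-1 gonads and the only member higher after oxidation in both strains.

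In rde-1, 48 of 130 members tested were lower after oxidation (36.9%) and 2 were higher (1.54%), against 26% lower and 31.1% higher over 12034 features. Among the other WAGO loci 503 of 2184 were lower (23%). The median log2 difference was -0.72 over members, -0.19 over the other WAGO loci and 0.03 over all features. Of 204 loci tested that met the WAGO-1 ratio alone, 49 were lower (24%), with a median of -0.43. With library totals 64 members were lower and the median over all features was -0.21. The second member that rose was the kinase gene cdk-11.2 (0.45, adjusted p = 0.0472), a call lost in most left-out libraries and with other scalings. The largest called decreases included sur-5 (-2.03), with 58.97, 12.8 and 12.0 oxidized against 89.7, 84.4 and 94.8 untreated, fbxa-13 (-1.96) and set-23 (-1.85), and the call at sur-5 was lost in most left-out libraries. The members took 1.46 ± 0.106% of WAGO signal in oxidized rde-1 libraries and 2.36 ± 0.029% in untreated ones.

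Whether the response to oxidation differed between the strains was tested on the effects within each table. Of 133 members, only fbxa-207 passed, and none in the opposite direction, against 0.0245% and 0.00816% over 12248 features. At an unadjusted p under 0.05 there were 45 members (33.8%), close to the 713 of 2187 other WAGO loci (32.6%), against 1925 over all features (15.7%). Without the first oxidized wild type replicate 15 members passed, without the second 2, and without any of the other libraries none. The median difference, rde-1 effect minus wild type effect, was 0.635 over members, 0.45 over the other WAGO loci and 0.48 over all features. With library totals the median over members was 0.45 and that over all features 0.29.

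The F-box pseudogene fbxa-207 had 1612, 1445 and 1567 in oxidized rde-1 libraries, against 1570, 1792 and 1653 in untreated ones. In wild type it had 262, 291 and 293 in oxidized libraries, against 697, 816 and 732 in untreated ones. The groups overlapped in rde-1 (-0.12) and lay apart in wild type (-1.40), and the difference between the effects was 1.28 on the log2 scale (SE 0.178, adjusted p = 0.0267). The call was lost with library totals, without the filter on low values and with the replicate number as a block.

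The untreated rde-1 and wild type tables were normalised separately, so their levels in ppm are set side by side with no test. fbxa-207 had 161, 185 and 187 ppm in rde-1, against 62.9, 81.1 and 75.5 ppm in wild type. C16C4.18 had 81.5 ± 19.7 ppm in rde-1 and 23.1 ± 1.92 in wild type, and srz-33 had 107 ± 20.4 in rde-1 and 45.1 ± 2.81 in wild type (SD, n = 3 each). Lower in rde-1 was sur-5, with 9.54 ± 1.05 ppm, against 24.7 ± 1.91 in wild type. Over the 157 members, rde-1 libraries lay wholly above wild type for 35 (22.3%) and wholly below for 37 (23.6%). Among the other WAGO loci the shares were 21.2% above and 25.8% below, and the median ratio was 0.949 for members and 0.932 for the others.

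Among the genes of the pathway around these loci, none listed rose in mRNA in henn-1 gonads. Of 13 genes for nuclear silencing by HRDE-1, 4 were lower and none higher: hrde-1 itself (-0.20), the histone methyltransferase gene set-25 (-0.22), the demethylase gene spr-5 (-0.28) and morc-1 (-0.20). Of 19 genes for making 22G-RNAs, 4 were lower (2 with library totals) and none higher, and of 9 Argonaute genes 7 were lower and none higher. Of 10 germ granule genes, 6 were lower and none higher, and with library totals 3 of the 10 and 6 of the 9 Argonaute genes were lower. Over all 8750 genes tested, 12.4% were lower and 7.44% higher. With TMM scaling, 7 of the 10 germ granule genes and 8 of the 9 Argonaute genes were lower. So were 6 of the 19 genes for making 22G-RNAs and 5 of the 13 for nuclear silencing. These falls stand beside the lower germ cell marker sums given above, and their part was not tested. Of 5 loci often described as silenced by these RNAs (bath-45, bath-18, C38D9.2, F15D4.5 and K02E2.6), all were WAGO loci and none was a member, and the 4 with tested mRNA were not called.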

How the data were processed

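Small RNA tables were deposited as normalised values (signal) per feature, and the embryo table as raw expected counts per locus and read length. The gonad mRNA table held deposited normalised signal. Per the submitters' processing notes, tools included DESeq2 1.18.1, RSEM 1.3.0, STAR 2.5.0a and Trimmomatic 0.35, with no roles stated. No genome build is named (not given in the sources used here). How the stage and IP tables were scaled is unknown. Dividing by the value of 1 read gave whole reads for 100% of values (tolerance 0.1) in the gonad small RNA and oxidation tables: 4215264 to 8745475 reads in gonads and 6311071 to 13613629 in the oxidation set. Embryo libraries listed 967644 to 3829632 reads.

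Signal was tested as log2(value + 1) with limma 3.58.1 (trend), for features with a mean of at least 10. Embryo counts were summed over read length, rounded and tested with edgeR 4.0.16 (quasi-likelihood, TMM, filterByExpr). Calls used a Benjamini-Hochberg adjusted p under 0.05 over the whole table, in R 4.3.3. On this scale the fold of low features is understated. DESeq2 1.42.0, other scalings, pseudocounts and filters, left-out libraries and a replicate block were tried as alternatives. Fits were tested on simulated data. RefSeq (WBcel235) named 150 members. No sequence of a member is printed.

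Members and lists were chosen with earlier results of these data known. Named members were the 8 highest in IP and in ratio, those nearest each threshold, up to 5 largest called increases and decreases per comparison with groups that did not overlap, those called in both gonad readouts, and those on a list. Deviations of same-numbered replicates correlated at 0.215 or less, and samples were not paired. In the wild type oxidation set they correlated at 0.0267 to 0.0541, above the other pairs there (0.00417 or less). The value of 0.215 was at replicate 3 of the rde-1 oxidation set.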

Additional observations from a re-analysis of the deposited data

Results flagged for a closer look

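The response of fbxa-207 to oxidation differed between rde-1 and wild type by 1.28 on the log2 scale (1.285), by the test of the difference itself. The call was lost with library totals, with no filter, with a replicate block and on leaving out any 1 of 10 of the 12 libraries.

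For 7 members, every henn-1 library lay on one side of every wild type library in gonads and on the opposite side within embryo WAGO reads. That difference between gonads and embryos was not tested. How many other WAGO loci did so is not given here, so the count has no background. Within embryo WAGO reads, 26.5% of all 2292 loci tested were higher and 29.7% lower. In gonads, 54.7% of the other WAGO loci tested were lower and 12.1% higher. T02G5.4, the member of highest IP, was lower in gonads (-0.26) and higher in embryos (1.02). fbxc-44 was lower in gonads (-0.45) and higher in embryos (0.95), Y71A12B.7 was lower in gonads (-0.59), with an embryo difference of 0.26 that was not called, and T16A9.1 was lower in gonads (-0.79) and higher in embryos (0.47). Y55H10B.1 was lower in gonads (-0.81), with an embryo difference of 0.45 that was not called, and srz-33 was lower in gonads (-0.80) and higher in embryos (0.87). The Wnt ligand gene cwn-1 had a gonad difference of 0.35 that was not called, and was lower in embryos (-1.31). For T02G5.4 the embryo values were 1447, 1384 and 1581 ppm of WAGO reads in henn-1, against 772, 725 and 685 in wild type.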

How the results depend on the processing

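Of 985 values recomputed under an alternative for 87 named results, 871 kept direction and side of the threshold, 114 fell short of it and none reversed. The direction of rde-11 in embryos, which was not among them, turned with the denominator (-1.64 over all listed reads, 1.74 within WAGO reads). Membership was most sensitive: 215 loci met the rule on values as deposited, of which 140 were members, 129 with an IP of at least 50 ppm, 113 with a WAGO-1 ratio below 1, and 0 with a ratio of at least 4, with the WAGO-1 input (chosen after seeing the data) or with the mean of both inputs (likewise). The same number of loci with the highest ratio to the WAGO-1 input, also chosen after seeing the data, shared 19 with the members. They gave 112 lower and 15 higher in gonads, and 1 lower and 4 higher in mRNA. After oxidation, 78 were lower and 5 higher in wild type, and 28 lower and 5 higher in rde-1. For the difference between strains 0 were higher. In henn-1 over stages, 70 were lower and 8 higher. At 68 h against embryos, 7 were lower and 13 higher. At 52 h against embryos, 52 were lower and 18 higher, with a median log2 difference of -0.562, against -1.46 over members.

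Leaving out each library in turn gave 3 to 7 lower and 6 to 14 higher members in mRNA, 1 to 2 higher after oxidation in wild type and 1 to 2 in rde-1, 0 to 15 higher for the difference between strains and 2 to 6 higher in henn-1 over stages. Without both sperm-rich libraries 7 were higher in mRNA. After oxidation in rde-1, 1 was higher with no filter, library totals, TMM or edgeR on recovered reads. With a replicate block 3 were higher there, and for the difference between strains 0 were higher with the block, no filter or library totals. The replicate block moved no other count by over 1.5 times, and same-numbered samples shared only a number. Library totals gave 17 lower and 8 higher in henn-1 over stages, 32 higher at 68 h and 1 higher in embryos. At 68 h a pseudocount of 5 gave 2 lower and no filter gave 7 lower. In embryos, WAGO loci alone gave 72 lower and 25 higher, and 22-nt reads of them 56 lower and 21 higher. edgeR on recovered reads called 3367 lower and 4389 higher features in gonads (117 and 9 members), 4434 lower and 4663 higher after oxidation in wild type (81 and 1 members), and 2715 lower and 3462 higher in rde-1 (44 and 1 members). The cause of these shifts was not tested. The IP, input and stage values rest on 1 library each.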
